A study of Caenorhabditis elegans with 21 samples.

Results

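The thick filament of *C. elegans* muscle and its giant associated proteins were followed through 8 named genes, each taken as its own row of the deposited count table: *unc-54*, *myo-1*, *myo-2*, *myo-3*, *unc-15*, *unc-22*, *unc-89* and *unc-45*. Rows were found for 7 of the 8 names, out of 45461 genes listed, and all 7 passed the low-count filter. No row was named *myo-1*. The table held a row named *let-75*, an older genetic name of *myo-1*, but no table used here pairs the names, so its values are given beside the 7 members and are not counted among them. Poly(A) RNA from whole animals was compared between *hpl-2*(*tm1489*), a null deletion allele of the gene encoding HPL-2, a worm form of heterochromatin protein 1, with 3 libraries, and the wild-type Bristol strain N2, with 2 libraries. Each library was a separate biological replicate from animals grown at 20°C. By the sample labels and their growth notes the *hpl-2*(*tm1489*) animals were L4 larvae and the N2 animals young adults, whereas the study's sequencing table gave L4 for both. If the stage labels are right, stage and genotype cannot be told apart in any comparison of these libraries.

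Muscle contracts as myosin motors of the thick filament pull on actin thin filaments within repeating units called sarcomeres. In *C. elegans*, each thick filament of the body wall has myosin heavy chain A in the middle and heavy chain B along the arms, wrapped around a core of paramyosin, and the pharynx, the feeding pump, uses its own pair of heavy chains. Giant proteins related to titin and obscurin lie along the sarcomere, and the chaperone UNC-45 folds the myosin head.

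The *hpl-2* row itself was counted 3409, 3452 and 2733 times in *hpl-2*(*tm1489*) replicates 1, 2 and 3 and 3130 and 2079 times in the N2 replicates. In TMM-normalized CPM (counts relative to a library size adjusted by edgeR's TMM factor), it stood at 29 ± 2.03 in *hpl-2*(*tm1489*) and 38.8 ± 0.205 in N2 (SD, n = 3 and 2 libraries, as for all means below). Its log2 fold change of -0.42 (standard error 0.26) did not pass edgeR's quasi-likelihood test (adjusted p = 0.192), but passed it with upper quartile scaling (-0.74, adjusted p = 0.0324) and without *hpl-2*(*tm1489*) replicate 2 (-0.55, adjusted p = 0.0279). A count over the whole gene does not separate the deleted part from the rest and so does not check the label. Library totals ran from 95252804 to 114718047 counts in *hpl-2*(*tm1489*) and from 66490671 to 80724052 in N2. Rows for ribosomal RNA genes took 1.06 to 7.05% of the counts in *hpl-2*(*tm1489*) and 0.183 to 0.26% in N2, and the part of this difference in the results below was not tested. Of 17498 genes tested, 4833 were lower in *hpl-2*(*tm1489*) and 5924 higher at an adjusted p under 0.1, which was taken as changed, with a median log2 fold change of 0.16.

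Transcripts of 6 of the 7 members fell in *hpl-2*(*tm1489*), and none rose. The motors, paramyosin and both giant proteins were 8.53 to 21.1-fold lower, whereas the chaperone gene *unc-45* did not pass the test. For comparison, 27.6% of all tested genes were called lower, 33.9% were called higher and 61.5% were called in either direction. The median log2 fold change was -3.13 over the members and 0.16 over all tested genes. A log2 fold change of -3 or less was found for 6 of the 7 members and for 569 of all tested genes (3.25%). This cut was set after the values were seen, and the count of members was 4 without *hpl-2*(*tm1489*) replicate 2, 3 without N2 replicate 2 or with library size alone, and 2 with offsets for gene span. Every *hpl-2*(*tm1489*) library was below both N2 libraries for the 6 members called, as was so for 33% of tested genes. The 7 members held 0.0749, 0.0433 and 0.0748% of all counts in *hpl-2*(*tm1489*) replicates 1, 2 and 3, against 0.551 and 0.765% in N2 replicates 1 and 2. In whole-animal RNA, fewer cells of a type and less RNA per cell cannot be told apart.

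**Figure D1:**
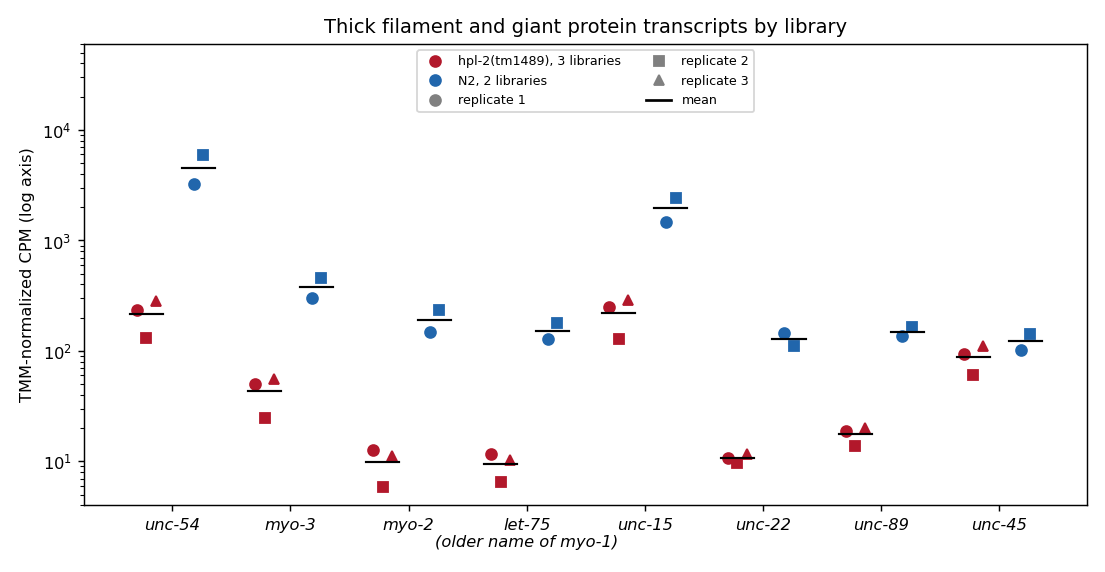
TMM-normalized CPM (log axis) of the 7 members and *let-75* in each of the 3 *hpl-2*(*tm1489*) libraries (red) and 2 N2 libraries (blue), with marker shape giving the replicate number and a line the mean of the group. The groups are apart for every gene shown but *unc-45*, whose *hpl-2*(*tm1489*) libraries lie between 60.1 and 111 CPM and N2 libraries at 102 and 142.5 CPM.

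Among the motors, *unc-54* encodes myosin heavy chain B, the major myosin of body-wall muscle. It was counted 30249, 14852 and 25661 times in *hpl-2*(*tm1489*) replicates 1, 2 and 3 and 260594 and 317099 times in N2. These counts correspond to 237, 131 and 281 CPM in *hpl-2*(*tm1489*), against 3240 and 5891 CPM in N2. The lower N2 library thus stood 11.5-fold above the highest *hpl-2*(*tm1489*) library. The means were 216 ± 77.2 CPM in *hpl-2*(*tm1489*) and 4565 ± 1875 CPM in N2, a log2 fold change of -4.40 (standard error 0.40, edgeR adjusted p = 4.27e-05), or 21.1-fold lower. Only 0.869% of tested genes had a lower log2 fold change. The *unc-54* row alone took 0.0152 to 0.0269% of all counts in *hpl-2*(*tm1489*) and 0.323 to 0.477% in N2.

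The body wall's other heavy chain, myosin A, is the product of *myo-3*. Its CPM was 50.6, 24.8 and 55.9 in *hpl-2*(*tm1489*) and 299 and 461 in N2. The groups did not overlap, and the lower N2 library was 5.34-fold above the highest *hpl-2*(*tm1489*) library. The log2 fold change of *myo-3* was -3.12 (standard error 0.38, edgeR adjusted p = 0.00016), or 8.68-fold lower, from means of 43.8 ± 16.6 CPM in *hpl-2*(*tm1489*) and 379.9 ± 115 CPM in N2.

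In the pharynx, *myo-2* encodes myosin heavy chain C. Its counts were 1612, 669 and 1033 in *hpl-2*(*tm1489*) and 12008 and 12565 in N2, which gave 12.6, 5.89 and 11.3 CPM in *hpl-2*(*tm1489*), against 149 and 233 CPM in N2. With means of 9.94 ± 3.57 CPM in *hpl-2*(*tm1489*) and 191 ± 59.5 CPM in N2, *myo-2* was 19.3-fold lower (log2 fold change -4.27, standard error 0.38, edgeR adjusted p = 4.14e-05). No *hpl-2*(*tm1489*) library came near the N2 range. The *let-75* row, which as *myo-1* would be the pharyngeal heavy chain D, stood at 11.8, 6.57 and 10.38 CPM in *hpl-2*(*tm1489*) and at 127 and 177 CPM in N2. It fell too, with a log2 fold change of -3.99 (standard error 0.33, edgeR adjusted p = 3.48e-05), or 15.9-fold lower. Muscle myosin heavy chains of both the body wall and the pharynx were thus lower at the transcript level. Their coding sequences resemble each other, and because the authors counted uniquely mapped reads, reads that fit several of them were not counted.

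Paramyosin, the rod protein of the filament core in invertebrate muscle, is encoded by *unc-15*. Its transcripts were counted 31820, 14606 and 26410 times in *hpl-2*(*tm1489*) and 117310 and 131619 times in N2. In CPM these were 249, 129 and 289 in *hpl-2*(*tm1489*), against 1458 and 2445 in N2. All *hpl-2*(*tm1489*) libraries were low, with the lower N2 library 5.04-fold above the highest of them. The log2 fold change of *unc-15* was -3.13 (standard error 0.38, edgeR adjusted p = 0.000169), or 8.78-fold lower.

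Both giants fell with smaller standard errors than the myosins. Twitchin, the product of *unc-22*, is a titin-like kinase of the A-band. Its row had 1375, 1089 and 1066 counts in *hpl-2*(*tm1489*) and 11659 and 5960 in N2, or 10.8, 9.59 and 11.7 CPM in *hpl-2*(*tm1489*), against 145 and 111 CPM in N2. The *hpl-2*(*tm1489*) libraries were within 1.22-fold of each other and the N2 libraries within 1.31-fold. The log2 fold change of *unc-22* was -3.58 (standard error 0.28, edgeR adjusted p = 2.88e-05), or 11.98-fold lower. The obscurin homolog *unc-89*, whose protein sits at the M-line where thick filaments are cross-linked, had 18.8, 13.9 and 20.1 CPM in *hpl-2*(*tm1489*) and 135 and 164 CPM in N2. It was 8.53-fold lower (log2 fold change -3.09, standard error 0.28, edgeR adjusted p = 4.26e-05), and its groups did not overlap either. With offsets for gene span, described below, these log2 fold changes were -2.19 for *unc-22* and -1.48 for *unc-89*.

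The chaperone of the set behaved differently. UNC-45 binds the myosin head and Hsp90 and is needed for thick filament assembly. The *unc-45* row had 12057, 6823 and 10169 counts in *hpl-2*(*tm1489*) and 8229 and 7672 in N2, or 94.3, 60.1 and 111 CPM in *hpl-2*(*tm1489*), against 102 and 142.5 CPM in N2. The highest *hpl-2*(*tm1489*) library lay above the lower N2 library. The means were 88.6 ± 26.1 CPM in *hpl-2*(*tm1489*) and 122 ± 28.4 CPM in N2, and the log2 fold change of -0.47 (standard error 0.32) did not pass the test (edgeR adjusted p = 0.237). Of all tested genes, 33.6% had a lower log2 fold change than *unc-45*. Its call depended on the scaling, since upper quartile scaling gave -0.81 with an adjusted p of 0.0323 and the offsets for gene span gave a positive value of 0.13 with an adjusted p of 0.695.

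Ratios between 2 genes within a library do not depend on the scaling between libraries. They are ratios of counts that were not divided by transcript length, so only their change between genotypes can be read. The ratio of *myo-3* to *unc-15* was 0.203, 0.193 and 0.193 in *hpl-2*(*tm1489*) and 0.205 and 0.189 in N2. The genotypes overlapped for this ratio, and their mean log2 ratios were -2.35 in both *hpl-2*(*tm1489*) and N2. In contrast, the ratio of *unc-54* to *unc-15* was 0.951, 1.02 and 0.972 in *hpl-2*(*tm1489*), against 2.22 and 2.41 in N2, a 2.36-fold decrease with no overlap. The ratio of *unc-54* to *myo-3*, the body wall's myosins B and A, was also 2.36-fold lower, at 4.68, 5.27 and 5.03 in *hpl-2*(*tm1489*) and 10.9 and 12.8 in N2. Each genotype was thus narrow for these ratios, although the CPM of these 3 genes varied 2.15 to 2.25-fold among the *hpl-2*(*tm1489*) libraries.

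The ratio of pharyngeal *myo-2* to body-wall *unc-54* overlapped between genotypes, with 0.0533, 0.045 and 0.0403 in *hpl-2*(*tm1489*) and 0.0461 and 0.0396 in N2. Within the pharynx, *myo-2* over *let-75* was 1.07, 0.897 and 1.09 in *hpl-2*(*tm1489*), against 1.17 and 1.32 in N2. For the giants, *unc-89* over *unc-22* was 1.74, 1.45 and 1.72 in *hpl-2*(*tm1489*) and 0.934 and 1.48 in N2, and the genotypes overlapped. Ratios of the chaperone gene to the myosin and paramyosin genes differed between genotypes. They come from whole-animal RNA, and the part of tissues other than muscle in the *unc-45* counts was not tested. The ratio of *unc-45* to *unc-54* was 0.399, 0.459 and 0.396 in *hpl-2*(*tm1489*), against 0.0316 and 0.0242 in N2, or 15.1-fold higher. Against *myo-2* it was 14.1-fold higher and against *unc-15* 6.39-fold higher, again without overlap. With 3 libraries against 2 there are only 10 orderings, so that no exact two-sided test of a single ratio can go below p = 0.2, and none was run.

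**Figure D2:**
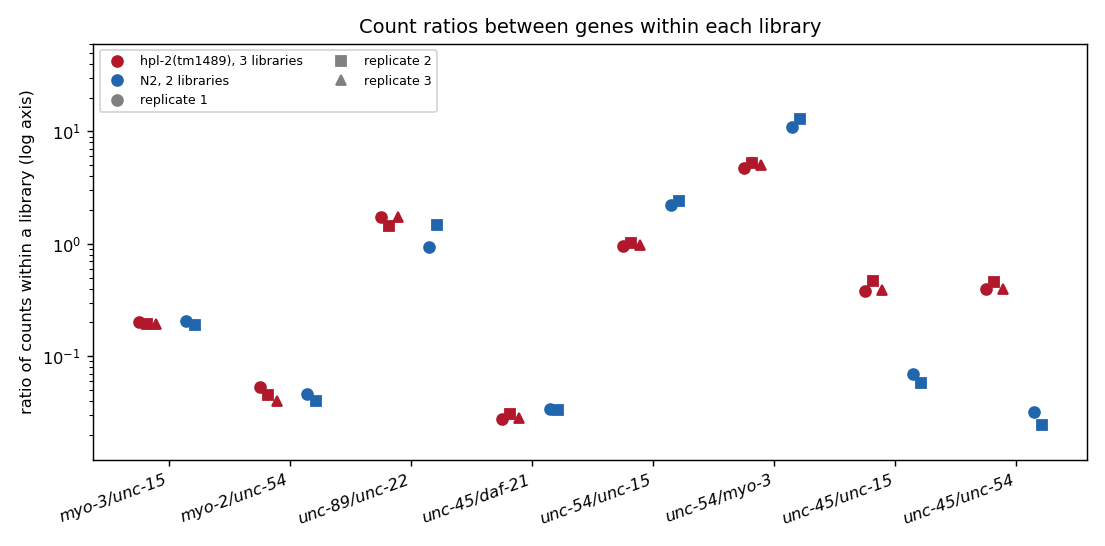
Ratios of counts between 2 genes in each *hpl-2*(*tm1489*) library (red) and each N2 library (blue), on a log axis, with marker shape giving the replicate number. The ratio of *myo-3* to *unc-15* lies near 0.2 in all 5 libraries, whereas *unc-45* over *unc-54* lies between 0.396 and 0.459 in *hpl-2*(*tm1489*) and at 0.0316 and 0.0242 in N2.

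The level of the members also differed among libraries of 1 genotype. All 8 rows, the 7 members and *let-75*, were lowest in *hpl-2*(*tm1489*) replicate 2, and 6 of them were highest in replicate 3. Of the 8 rows, 7 were higher in N2 replicate 2 than in N2 replicate 1, with *unc-22* as the exception. Genes outside the set could share this order, as did the Hsp90 gene *daf-21*, with 3376, 1969 and 3938 CPM in *hpl-2*(*tm1489*) and 3038 and 4282 CPM in N2. Others did not, such as the troponin C gene *pat-10*, with 2170, 3136 and 2026 CPM in *hpl-2*(*tm1489*). The share of all tested genes with this order was not counted, so it is not read as a trait of the members. Relative to the mean of the genotype on the log2(CPM + 0.5) scale, *hpl-2*(*tm1489*) replicate 2 was at -0.65 for *unc-54*, -0.64 for *myo-2*, -0.72 for *myo-3* and -0.71 for *unc-15*. The giants deviated less there, with -0.14 for *unc-22* and -0.31 for *unc-89*. The chaperone *unc-45* was at -0.51 in that library, close to *let-75* at -0.47. Leaving out *hpl-2*(*tm1489*) replicate 2, or any other library, left all 6 members lower and past the threshold.

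Likeness of pattern was measured as the distance between genes' log2 CPM, each centered on its own mean, over the 5 libraries, among 13983 genes that averaged 100 counts or more per library. Within the set, *myo-3* and *unc-15* were 0.102 apart, *unc-54* and *myo-2* 0.374 apart, and *unc-45* no less than 2.84 from any other member. The nearest genes to *unc-54* were *let-2*, a basement membrane type IV collagen, at 0.155, *F27E5.3* at 0.218 and *ketn-1*, the kettin homolog, at 0.252. Those nearest to *myo-2* were *F27E5.3* at 0.225, *let-2* at 0.322 and *ant-1.4*, an adenine nucleotide translocase, at 0.337. The gene nearest to *unc-22* was the cuticle collagen gene *col-152* at 0.159, followed by the cytochrome P450 gene *cyp-14A2* at 0.411 and the astacin protease gene *nas-27* at 0.44. For *unc-45* they were *Y45G12B.2* at 0.0558, *Y55F3AM.13* at 0.0738 and *cogc-3*, a Golgi tethering subunit, at 0.0759. These distances rest on 5 points that fall in 2 groups and describe these libraries.

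Among genes that work with the members, some fell, some rose and some were not called. Of 7 myosin light chain genes, 3 fell, 1 rose and 3 were not called, with a median log2 fold change of -0.19. For this list and the later ones, the shares over all tested genes were 27.6% lower, 33.9% higher and 61.5% in either direction. The light chain counts are therefore not read as a trait of these genes. The muscle light chains fell, with log2 fold changes of -1.67 for *mlc-1*, -1.12 for *mlc-2* and -1.28 for *mlc-3*. *mlc-1* and *mlc-2* are near-identical copies, so their separate counts are uncertain. The essential light chain *mlc-3* had 720.6, 791 and 717 CPM in *hpl-2*(*tm1489*), against 1487 and 2118 CPM in N2, and its ratio to *unc-54* was 8.88-fold higher in *hpl-2*(*tm1489*). The light chain that rose was *K08E3.10*, named *mlc-7* in RefSeq, with a log2 fold change of 1.07. The 3 not called were *mlc-4*, *T12D8.6* and *K04C1.4*.

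Of 11 myosin heavy chain genes beyond the members, 6 fell, 2 rose and 3 were not called (median -0.55). *hum-7*, an unconventional myosin, fell most, to 4.59, 3.59 and 5.53 CPM in *hpl-2*(*tm1489*), against 21.3 and 26.1 CPM in N2 (log2 fold change -2.38). *nmy-2*, the non-muscle myosin of the early embryo and of cell division, rose by 1.05 on the log2 scale, but not past the threshold without N2 replicate 2 (0.84, adjusted p = 0.187 by edgeR). The other that rose was *hum-1* (0.76). *nmy-1*, a non-muscle myosin of embryonic elongation, had a log2 fold change of 0.13, with *hum-2* and *hum-8* also not called. Without N2 replicate 1, 3 of the 11 were lower. Reduction of the same size as in the member myosins was not found in these genes, whose lowest log2 fold change was -2.38. The list was mixed and also held *myo-5* (-1.76) and *F45G2.2* (-0.72), both lower, so it does not set muscle against non-muscle myosins.

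Other sarcomere giants and thick filament partners were lower in 8 of 12 genes, higher in 1 and not called in 3, with a median log2 fold change of -1.33. *ketn-1*, whose giant product binds thin filaments, fell most, with 15.4, 9.38 and 21.2 CPM in *hpl-2*(*tm1489*), against 269 and 487 CPM in N2. Its log2 fold change was -4.63 (standard error 0.41, edgeR adjusted p = 3.9e-05), or 24.7-fold lower. *ttn-1*, the worm titin, had 4.38, 3.66 and 4.48 CPM in *hpl-2*(*tm1489*), against 24.9 and 14.4 CPM in N2 (log2 fold change -2.24). *unc-82*, a kinase that organizes thick filaments, fell by 1.44 on the log2 scale. In contrast, *mel-26*, a substrate adaptor of the CUL-3 ubiquitin ligase that binds UNC-89, rose to 151, 169 and 178 CPM in *hpl-2*(*tm1489*), against 30.5 and 25.99 CPM in N2, which was 5.88-fold higher. The LIM-domain genes *unc-97* and *lim-9* and the phosphatase gene *scpl-1* were not called.

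Of 12 chaperone and turnover partners of UNC-45, 5 fell, 3 rose and 4 were not called (median -0.69). Over all tested genes, 27.6% were called lower, 33.9% higher and 61.5% in either direction, so these counts are not read as a response of this list. *daf-21*, which encodes Hsp90, the partner of UNC-45 in folding myosin, had a log2 fold change of -0.24 that did not pass the test (edgeR adjusted p = 0.564). The ratio of *unc-45* to *daf-21* was 0.0279, 0.0305 and 0.0283 in *hpl-2*(*tm1489*) and 0.0337 and 0.0333 in N2, without overlap but with a difference of only 1.16-fold. *cdc-37*, a co-chaperone of Hsp90 for kinases, fell by 1.90 on the log2 scale, and *hsp-1*, *cdc-48.1*, *cdc-48.2* and *unc-23* also fell. *sti-1*, *C30C11.4* and *dnj-13* were not called. *chn-1*, the CHIP ubiquitin ligase that with UFD-2 marks UNC-45 for degradation, rose to 116, 247 and 148 CPM in *hpl-2*(*tm1489*), against 32.2 and 24.4 CPM in N2. The log2 fold change of *chn-1* was 2.59 (standard error 0.38, edgeR adjusted p = 0.000468), and that of *ufd-2* was 0.88. The call of *ufd-2* was lost without N2 replicate 2 (0.72, edgeR adjusted p = 0.193), as were calls of this list, of which 2 were lower without that library. The third gene that rose was *bag-1*, a co-chaperone of Hsp70 (1.61).

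**Figure D3:**
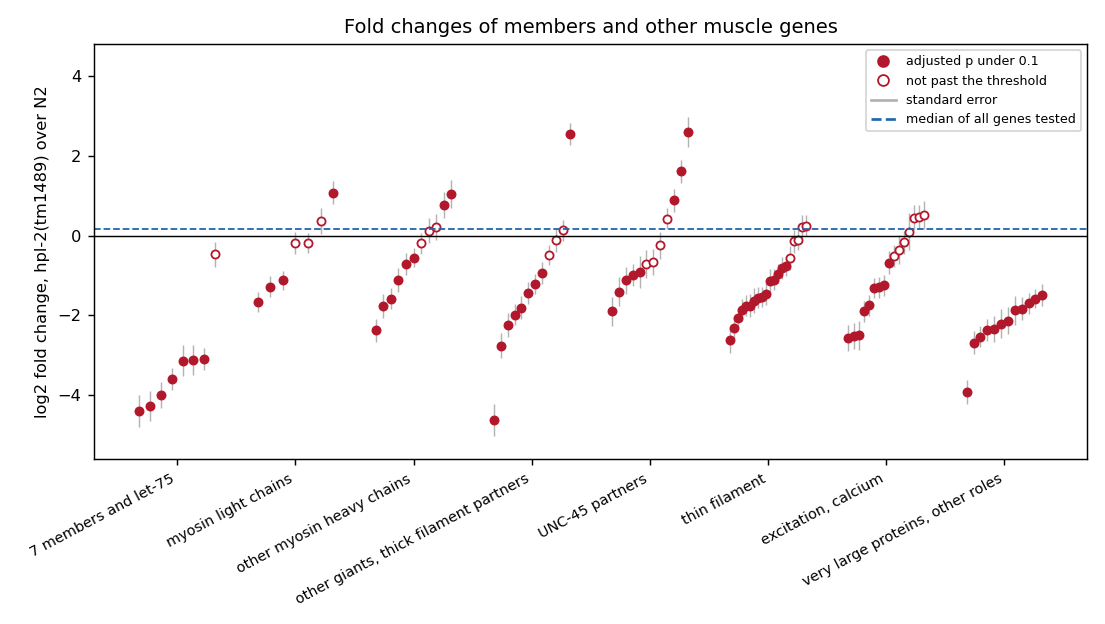
Log2 fold changes of *hpl-2*(*tm1489*) over N2 for each gene of 8 lists, with standard errors as gray bars, filled points for an adjusted p under 0.1 and a dashed line at the median of all tested genes (0.16). The 7 members and *let-75* lie between -4.40 and -3.09 but for *unc-45* at -0.47, whereas the other lists spread from -4.63 to 2.59.

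Thin filament genes were lower in 15 of 20 tested, higher in none and not called in 5 (*act-2*, *tnc-2*, *pat-10*, *cap-1* and *cap-2*), with a median log2 fold change of -1.31. Tropomyosin, encoded by *lev-11*, had 830, 734 and 903 CPM in *hpl-2*(*tm1489*), against 1996 and 2851 CPM in N2, a log2 fold change of -1.56. The actin gene *act-4* fell by 2.07, with counts that near-identical actin copies make uncertain, and the troponin I gene *tni-3* fell most, by 2.63. Thus the ratio of *lev-11* to *unc-15*, thin over thick filament, was 3.09-fold higher in *hpl-2*(*tm1489*) and that of *act-4* to *unc-54* 5.11-fold higher, with no overlap between genotypes for either.

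Most members are long genes, and fold change varied with gene span, exons and introns together, over all genes. From the shortest to the longest decile of tested genes, the median log2 fold change went down without a break, with 0.97 in the shortest and -0.60 in the longest. The share called lower was 16.5% in the shortest decile and 46.9% in the longest. Of the members, 6 were in the longest decile and *unc-15* in the next. Only 3 tested genes were longer than *unc-89* and 21 longer than *unc-22*. Offsets that remove each library's smooth trend with gene span left the same 6 members lower, with log2 fold changes of -4.01 for *unc-54*, -3.89 for *myo-2*, -2.73 for *myo-3* and -2.82 for *unc-15*. The giants moved by more, to -2.19 for *unc-22* (edgeR adjusted p = 8.1e-05) and -1.48 for *unc-89* (edgeR adjusted p = 0.000452). Among partners, *ketn-1* was then at -3.53, *hum-7* at -1.36 and *mlc-2* at -1.93. *let-75* had no span in the table used.

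**Figure D4:**
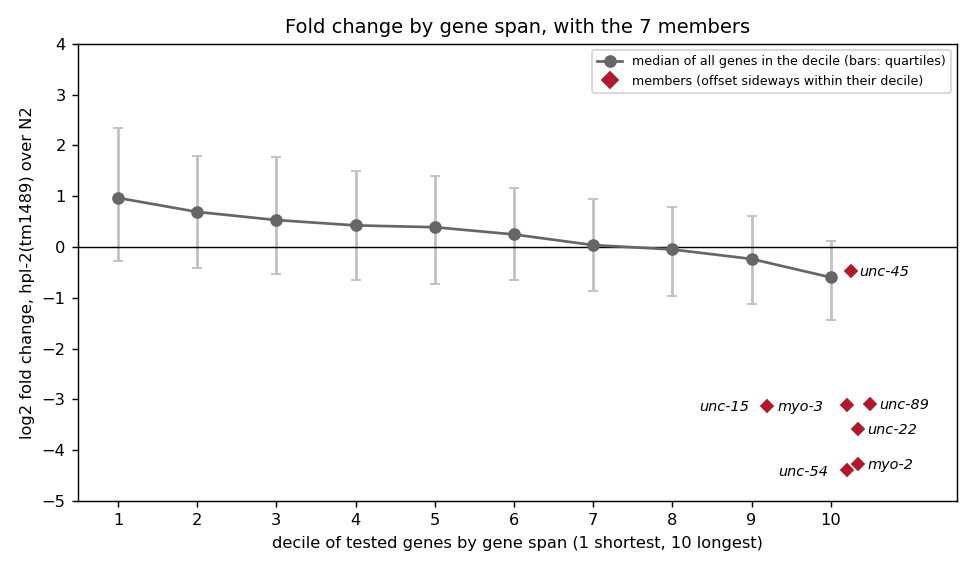
Log2 fold change of *hpl-2*(*tm1489*) over N2 by decile of gene span, from the shortest (1) to the longest (10), as the median of each decile with bars for the quartiles, and the 7 members as red diamonds in their decile. The medians go down from 0.97 to -0.60 along the deciles, and all members but *unc-45* lie below -3.

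Very large proteins of other roles were set beside the giants. All 12 such genes fell, with log2 fold changes between -3.91 and -1.49 and a median of -2.17. The list was not chosen to leave out genes expressed in muscle, such as the dystrophin gene *dys-1* (-2.37), so it does not stand for genes outside muscle. The lowest was *let-805*, myotactin of the epidermal attachment to muscle, at -3.91. *dhc-1*, the dynein heavy chain, was at -1.70 and *anc-1*, the giant nuclear anchor, at -1.83. With the offsets for gene span 10 of the 12 were lower, *let-805* at -2.77 and *dhc-1* at -0.895. *anc-1* was then at -0.30 and *ttn-1*, the longest gene tested, at -0.38, and neither passed the test (edgeR adjusted p = 0.514 and 0.337).

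Markers of the tissues showed how the members compared with the rest of the animal. Body-wall muscle markers fell in 5 of the 6 tested, with a median log2 fold change of -1.24 and a summed level of 4353 to 5214 CPM in *hpl-2*(*tm1489*), against 7464 to 9712 CPM in N2. Except for *unc-120*, the markers tested are also in the thin filament list. The largest fall was that of *tnt-2*, a troponin T gene, at -1.75, and the marker not called was *pat-10*, a troponin C gene, at -0.15. The defining factor of body-wall muscle, *hlh-1*, the MyoD homolog, was listed at 0 in all 5 libraries, N2 included, and whether this 0 comes from the counting was not tested, so it is not read as absence of the transcript. Pharyngeal muscle markers fell in 4 of 5, *pha-4* by 2.03 on the log2 scale, with *tnc-2* not called and summed levels of 92.6 to 112 CPM in *hpl-2*(*tm1489*) and 161 to 172 CPM in N2. The epidermal markers fell in 6 of 8 (median -3.53), all but *lin-26* and *elt-3*, with summed levels of 256 to 470 CPM in *hpl-2*(*tm1489*) and 3748 to 5431 CPM in N2. Those that fell were the cuticle collagen genes *dpy-7*, *dpy-13*, *rol-6*, *sqt-3* and *bli-1* and the molting gene *mlt-10*, which was lowest at -5.71. The transcription factor genes *lin-26* (-0.67) and *elt-3* (-0.07) were not called, so the fall is of cuticle and molting genes and is not read as one of the epidermis as a whole. Intestinal markers fell in 7 of 8, all but *ifb-2*, and in 4 without N2 replicate 2, with summed levels of 3481 to 4872 CPM in *hpl-2*(*tm1489*) and 8420 to 9748 CPM in N2. The lowest of these was the yolk gene *vit-2* at -2.03.

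Neuronal markers had a median of 0.02, with 3 of 8 lower (*egl-3* at -1.94, *unc-10* and *rab-3*) and *ric-4* higher at 0.91, and summed levels of 247 to 259 CPM in *hpl-2*(*tm1489*) and 298 to 346 CPM in N2. *ric-4* did not pass the threshold without *hpl-2*(*tm1489*) replicate 2 (0.46) or N2 replicate 2 (0.62). Germ line markers rose in 3 of 8 and fell in 1 (median 0.34), with summed levels of 1132 to 3373 CPM in *hpl-2*(*tm1489*) and 1718 to 2486 CPM in N2. Over all tested genes, 27.6% were called lower and 33.9% higher, so these counts are not read as changes particular to neurons or the germ line. *rme-2*, the yolk receptor of oocytes, was highest at 2.31, with 289, 67.4 and 376 CPM in *hpl-2*(*tm1489*), against 38.2 and 60.4 CPM in N2, and *glp-1* and *him-3* were the others that rose. *glh-1*, the germ line marker that fell (-0.67), was not called without N2 replicate 1 (-0.87) or N2 replicate 2 (-0.43). None of these marker lists has a gene at 0 in every library other than *hlh-1*. The part of tissue composition in the fall of the members was not tested.

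**Figure D5:**
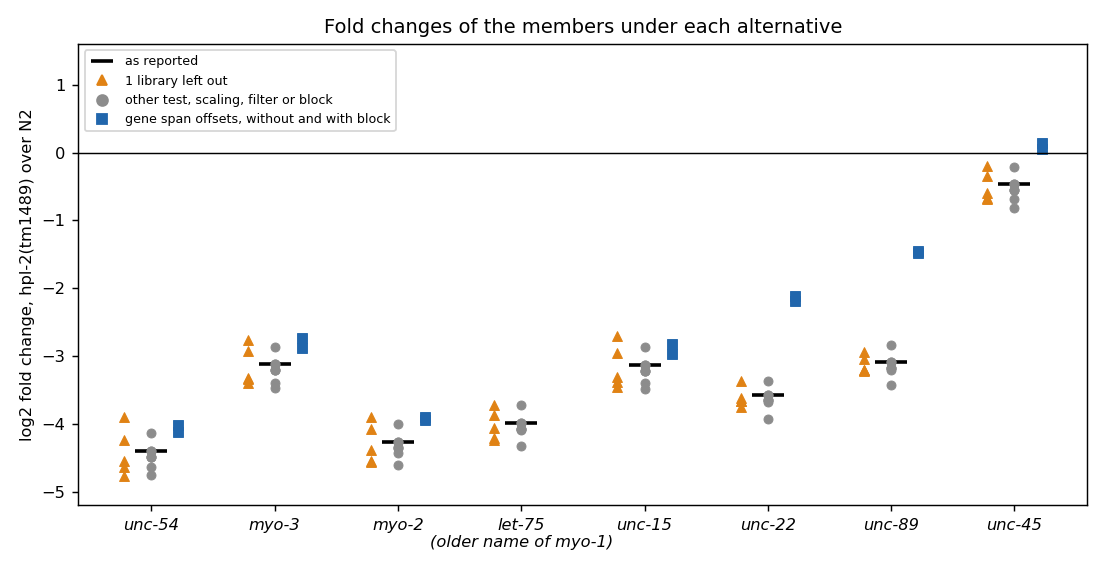
Log2 fold changes of *hpl-2*(*tm1489*) over N2 of the 7 members and *let-75* as reported (black line), with 1 library left out (orange), with another test, scaling, filter or a replicate block (gray), and with offsets for gene span (blue, not for *let-75*). All values but those of *unc-45* stay below 0, the closest being -1.45 for *unc-89* with gene span offsets and a replicate block.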

How the data were processed

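Poly(A) RNA-seq of 3 *hpl-2*(*tm1489*) and 2 N2 libraries was used, and the other assays of the series were not used here. The authors aligned the single-end stranded reads to WS220 with TopHat2 (2.0.14 in the submitters' processing notes), counted uniquely mapped reads per gene with Rsubread and deposited raw counts. Whether counting used the strand is not given in the sources used here, so counts of genes overlapping on opposite strands are uncertain.

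Counts were filtered with filterByExpr (minimum count 10), TMM-normalized and fitted with edgeR 4.0.16 (robust quasi-likelihood, genotype as group; common dispersion 0.0814) in R 4.3.3. Benjamini-Hochberg adjustment ran over the 17498 genes tested, and genes with an adjusted p under 0.1 counted as changed. The standard error is the absolute log2 fold change over the square root of F. The depth of 66490671 to 114718047 counts makes counting error small for the members, so that the spread between libraries sets the precision. Libraries of 1 genotype differed by more than sampling noise (chi-square per degree of freedom at least 97.2).

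Gene spans came from RefSeq (WBcel235), matched by name for 97% of tested genes, and no coordinates are given. Members and lists were chosen with earlier results of these data known, so lists are described by counts and medians. From each list, fixed genes and the largest rise and fall (mean of at least 100 counts) were named. The few others named beside small counts were chosen after their values were seen. Alternatives were DESeq2 1.42.0, its size factors, upper quartile, library size alone, no filter, a threshold of 0.05, a minimum absolute log2 fold change of 1, span offsets, a replicate block, both together, and each library left out. The procedure was also run on simulated data in which few genes were changed, unlike the 61.5% called here. That run therefore cannot test the scaling or the calls in these data.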

Additional observations from a re-analysis of the deposited data

How the results depend on the processing

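Under all 15 alternatives, *unc-54*, *myo-2*, *myo-3*, *unc-15*, *unc-22* and *unc-89* were lower and past the threshold, as was *let-75* under those without span offsets, since it had no span. With 1 library left out, log2 fold changes ran from -4.76 to -3.89 for *unc-54*, -4.56 to -3.90 for *myo-2*, -3.39 to -2.76 for *myo-3*, -3.45 to -2.70 for *unc-15*, -3.75 to -3.37 for *unc-22* and -3.22 to -2.94 for *unc-89*. Fits without an N2 library leave 1 N2 library, which is assumed to vary like the others. *unc-45* was called only with upper quartile scaling (-0.81), and turned positive with span offsets (0.13) and with these and a replicate block together (0.0482). *daf-21* turned positive with library size alone (0.0118) and without N2 replicate 2 (0.0384). *nmy-1* turned negative with upper quartile (-0.20), without *hpl-2*(*tm1489*) replicate 2 (-0.0027) and without N2 replicate 2 (-0.27), in a range of -0.27 to 0.705 with 1 library left out. The causes were not tested. *unc-120* was not called with library size alone (-0.65) or without N2 replicate 1 (-0.67), nor *unc-82* with span offsets (-0.46).

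Of the calls, 44.9% were lower with TMM, 57.5% with upper quartile, 36% with library size alone and 52.6% with span offsets, with medians over all genes of 0.16, -0.16, 0.41 and -0.04. Lower calls among light chains numbered 5 with upper quartile or span offsets, and those among other heavy chains 3 with span offsets. With span offsets and a replicate block, 4 of the 12 very large proteins were lower. Replicate numbers were shared without a stated pairing (correlations of same-numbered deviations -0.301 and -0.376). The deviations of the N2 libraries mirror each other, so both correlations rest on the same N2 difference and are not separate checks of pairing. The replicate block gave 7879 calls with the same 6 members lower (median -3.40), and *mlc-2*, *nmy-2*, *ufd-2*, *unc-120* and *glh-1* were not called in it. No N2 library has replicate number 3, so *hpl-2*(*tm1489*) replicate 3 adds nothing to the genotype effect under the block. In that fit 3 intestinal, 3 body-wall muscle and 0 germ line markers were lower. Offsets by coding length were not run, as no protein table was used here.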

Other observations

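Genes that excite muscle cells and handle their calcium were lower in 9 of 16 tested, higher in none and not called in 7, with a median log2 fold change of -0.96. Over all tested genes, 27.6% were called lower and 61.5% in either direction. Those not called were *itr-1*, *unc-93*, *sup-9*, *unc-29*, *unc-63*, *ccb-1* and *unc-36*. *unc-68*, the ryanodine receptor that releases calcium from the sarcoplasmic reticulum, fell most, with 11.3, 9.70 and 12.1 CPM in *hpl-2*(*tm1489*), against 85.9 and 45.4 CPM in N2 (log2 fold change -2.57, standard error 0.33, and -1.40 with offsets for gene span). The calcium pump gene *sca-1* was at -2.50 and the voltage-gated calcium channel gene *egl-19* at -1.90, both named after their values were seen.

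Of 8 tested transcription factor genes of muscle and pharynx, 7 fell and 1 rose (median -1.89). *peb-1*, a factor of the pharynx, fell most, to 0.923, 0.546 and 0.996 CPM in *hpl-2*(*tm1489*), against 4.71 and 6.50 CPM in N2 (log2 fold change -2.77). *pha-4*, the FoxA factor of the pharynx, was at -2.03, *ceh-22*, an activator of *myo-2*, at -2.05 from 0.159 CPM in *hpl-2*(*tm1489*) and 0.655 CPM in N2, and *unc-120*, the SRF homolog of muscle, at -0.89. The call of *unc-120* was lost without N2 replicate 1 (-0.67). *hnd-1*, a Hand factor of early muscle precursors, was the gene that rose, with 42, 25 and 43 counts in *hpl-2*(*tm1489*) and 0 in both N2 libraries, at least 15.2-fold higher against a floor of 3 counts over the N2 libraries. With *hnd-1* at this bound the median was again -1.89, which could not differ, since *hnd-1* remained the highest of the 8. *hlh-1* was listed at 0 in all 5 libraries, N2 included, so it could not be tested for a change, and whether the 0 comes from the counting was not tested.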
